A study of Homo sapiens with 6 samples.

Results

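TXNIP, ARRDC4, ARRDC3 and ARRDC2, 4 genes of the alpha-arrestin family, were examined together with MLX and MLXIP, the genes of a glucose-sensing transcription factor pair. They were 6 of the 25702 gene identifiers in the deposited counts, and each was found by its NCBI Gene ID. The set was chosen by the higher TXNIP level of MXD3 libraries over empty-vector libraries in these same data, and the other 5 genes were added as its regulators and relatives, so values of the set in that comparison are given as a description with no test. MLXIP encodes MondoA, which binds DNA as a heterodimer with MLX when glucose phosphates accumulate, and MLX also pairs with some repressors of the MAX network. TXNIP is a classical target of that heterodimer. Its protein binds thioredoxin and promotes removal of glucose transporters from the cell surface, and ARRDC4 also limits glucose uptake, whereas ARRDC3 acts as an adaptor that brings NEDD4-family ubiquitin ligases to membrane receptors and ARRDC2 is less well described.

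The libraries were made from K562, an established human cell line derived from a chronic myeloid leukaemia. The cells received by nucleofection the expression plasmid pCMV-HA, which carries the CMV promoter, as empty vector (EV), with MXD3, a transcriptional repressor that pairs with MAX, or with the STIM1::MXD3 fusion, in which the start of STIM1 replaces the N-terminal repression domain of MXD3. All groups received a plasmid of the same backbone and had no other treatment. Each of the 3 groups had 2 libraries of poly(A)-selected RNA, numbered replicate 1 and 2, which the study describes as independent transfections, and the groups are limited as models by transient expression in a single cell line in which untransfected cells remain. Totals were 53048343 to 63835779 counts per library. CPM below are counts scaled to a common library size and corrected for composition by TMM. In EV replicate 1 and EV replicate 2 the MXD3 gene was measured at 9.33 and 11.7 CPM, in MXD3 libraries at 2523 and 2162 CPM and in STIM1::MXD3 libraries at 1975 and 1849 CPM, while STIM1 was at 159.3 to 204.5 CPM in EV and MXD3 libraries and at 471.4 and 453.0 CPM in STIM1::MXD3 libraries, which matched every plasmid label. All 10 erythroid and leukaemia markers of K562 were at 25 CPM or more in every library (summed level 3490 to 5108 CPM), and 12 of 16 markers of other cell types stayed below 3 CPM in every library, the exceptions being CD3D, LYZ, EPCAM and KRT8, with a summed level over the 16 of 442 to 535 CPM.

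Promoters of TXNIP, ARRDC4 and ARRDC3 are shown because TXNIP and ARRDC4 had the same pattern across libraries and ARRDC3 had another. Sequences are the 250 bases before the gene start from RefSeq on GRCh38.p14, read 5′ to 3′ in the direction of transcription. Capitals mark matches to the searched motifs: the E-box CACGTG, a spaced direct pair (CACGNG, 5 bases of any kind and CACGNG again), a spaced inverted pair (CANGNG, 5 bases of any kind and CNCNTG), and the CCAAT box CCAAT, each searched on both strands, so that ATTGG is CCAAT on the other strand.
TXNIP, chr1:145996580-145996829, minus strand: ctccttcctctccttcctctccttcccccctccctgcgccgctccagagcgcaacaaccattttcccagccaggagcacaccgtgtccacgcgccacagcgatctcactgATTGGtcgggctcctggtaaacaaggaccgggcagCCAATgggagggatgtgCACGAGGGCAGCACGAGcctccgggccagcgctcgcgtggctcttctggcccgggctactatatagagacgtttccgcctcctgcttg
ARRDC4, chr15:97960453-97960702, plus strand: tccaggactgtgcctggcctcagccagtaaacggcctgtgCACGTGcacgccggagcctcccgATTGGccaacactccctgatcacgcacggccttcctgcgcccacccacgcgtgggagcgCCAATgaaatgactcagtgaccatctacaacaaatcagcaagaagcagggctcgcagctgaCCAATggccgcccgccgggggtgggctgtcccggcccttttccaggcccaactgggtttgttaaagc
ARRDC3, chr5:91383318-91383567, minus strand: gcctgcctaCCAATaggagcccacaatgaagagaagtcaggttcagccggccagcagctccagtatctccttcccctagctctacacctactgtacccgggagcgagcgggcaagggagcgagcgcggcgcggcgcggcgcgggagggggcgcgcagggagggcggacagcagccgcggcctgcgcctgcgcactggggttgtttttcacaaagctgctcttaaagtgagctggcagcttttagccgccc

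The TXNIP window held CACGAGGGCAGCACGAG, a match to the direct pair that started 88 bases before the gene start. That motif was present in 20 of 35116 promoter windows (0.057%), and it was searched for because the TXNIP element was already known. CCAAT matches lay 140 and 105 bases before the TXNIP start, on opposite strands. ARRDC4 had no match to the direct pair, but had an E-box at 210 bases and CCAAT matches at 187, 128 and 67 bases before its start. ARRDC3 had a single CCAAT match at 241 bases and no E-box in this window. Of the other members, MLX had an E-box at 50 bases and a CCAAT match at 66 bases before its start, MLXIP a CCAAT match at 76 bases and ARRDC2 a CCAAT match at 93 bases in its second window. The inverted pair matched no window of the 6 genes. E-boxes were found in 7.26% of all windows (8.77% of genes) and CCAAT in 34.6% (39.7% of genes), so neither motif was particular to these genes. The windows searched also held the 50 bases after the gene start. A match is a string of letters and not a measured binding site.

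On GRCh37, the build of the alignments, TXNIP (Gene ID 10628) lies at chr1:145438490-145442635 on the plus strand and ARRDC4 (91947) at chr15:98503933-98517063 on the plus strand. ARRDC3 (57561) lies at chr5:90664448-90679134 on the minus strand, ARRDC2 (27106) at chr19:18111941-18124911, MLX (6945) at chr17:40719090-40725257 and MLXIP (22877) at chr12:122516628-122631894, all 3 on the plus strand. Exons of 3 of these genes overlap another gene on the opposite strand: ARRDC3 shares 145 exon bases with ARRDC3-AS1, ARRDC2 442 bases with an unnamed transcript and MLX 775 bases with PSMC3IP. Whether counting used strand is not given in the sources used here, so these overlaps could hold reads of either gene. TXNIP, ARRDC4 and MLXIP had no such overlap.

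TXNIP had the highest mean level of the set per length of exon, 21.1 RPKM over the 6 libraries, and also the widest range, 11.3 to 42.6 RPKM. That rank came from the plasmid groups: its mean was 12.7 RPKM in EV, below MLX at 19.0 and ARRDC3 at 16.1 RPKM and near MLXIP at 12.6 RPKM, against 30.1 RPKM in MXD3 and 20.4 RPKM in STIM1::MXD3. Over all libraries MLX followed at 18.4 RPKM (17.0 to 19.9), ARRDC3 at 15.7 RPKM (9.64 to 22.2) and MLXIP at 11.8 RPKM (9.16 to 14.2). The ranges of each neighbouring pair among these 4 genes overlapped, while MLX lay above MLXIP in every library. ARRDC2 at 6.22 RPKM (5.91 to 6.85) lay below MLXIP in every library, and ARRDC4 at 2.61 RPKM (1.57 to 4.93) lay below ARRDC2 in every library. Thus MLX and MLXIP transcripts were both present in every library, and ARRDC4 was the least abundant member.

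TXNIP was highest in the MXD3 libraries. It was measured at 40.5 and 51.0 CPM in EV replicates 1 and 2, at 63.1 and 152.9 CPM in MXD3 replicates 1 and 2, and at 49.3 and 97.7 CPM in STIM1::MXD3 replicates 1 and 2. Both MXD3 libraries lay above both EV libraries, while the STIM1::MXD3 libraries overlapped both other groups. The mean was 45.8 ± 7.42 CPM in EV (SD, n = 2), 108.0 ± 63.5 CPM in MXD3 (n = 2) and 73.5 ± 34.2 CPM in STIM1::MXD3 (n = 2). The MXD3 mean was thus high mainly through replicate 2, and replicate 2 was the higher library in every group. In bulk RNA, a change in the number of cells that express TXNIP and a change in RNA per cell cannot be told apart.

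ARRDC4, which like TXNIP limits glucose uptake, also peaked in MXD3 replicate 2. It was measured at 6.36 and 7.43 CPM in EV, at 9.56 and 20.0 CPM in MXD3 and at 7.59 and 12.8 CPM in STIM1::MXD3 replicates 1 and 2. Both MXD3 libraries and both STIM1::MXD3 libraries lay above both EV libraries, although STIM1::MXD3 replicate 1 exceeded EV replicate 2 by little; for TXNIP that library lay just below EV replicate 2. Counts behind these values were 324 to 1124 per library. ARRDC4 counts were 13.1 to 15.7% of the TXNIP counts in each of the 6 libraries, a narrow range beside the spread of 40.5 to 152.9 CPM for TXNIP itself.

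The other arrestins did not share that order. ARRDC3 was measured at 87.9 and 72.3 CPM in EV, at 110.4 and 58.0 CPM in MXD3 and at 91.4 and 48.1 CPM in STIM1::MXD3 replicates 1 and 2. Its values separated by replicate number and not by plasmid, with replicate 1 the higher library in every group. ARRDC2 was nearly flat, at 27.4 and 27.6 CPM in EV, 27.4 and 27.8 CPM in MXD3 and 31.2 and 31.8 CPM in STIM1::MXD3. Both STIM1::MXD3 libraries lay above all other libraries for ARRDC2, by a small margin.

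The transcription factor genes themselves varied little with plasmid. MLX was measured at 84.7 and 77.1 CPM in EV, at 79.0 and 72.5 CPM in MXD3 and at 81.4 and 75.1 CPM in STIM1::MXD3, and the groups overlapped. MLXIP was measured at 197.4 and 152.1 CPM in EV, at 184.9 and 147.4 CPM in MXD3 and at 172.8 and 127.4 CPM in STIM1::MXD3, again with overlapping groups. Replicate 1 was the higher library of each pair for both genes.

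**Figure D1:**
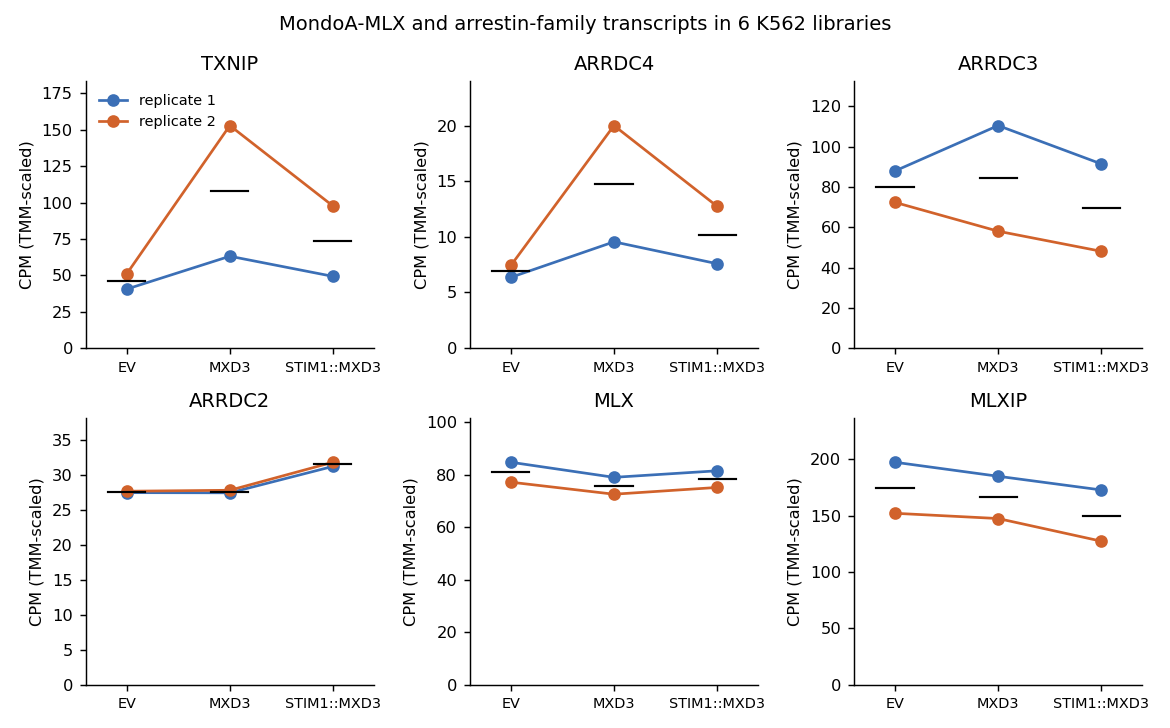
Level of each of the 6 genes in CPM (vertical axis, linear, separate scale per gene) in EV, MXD3 and STIM1::MXD3 libraries, with libraries of the same replicate number joined by a line and black bars at group means (n = 2). TXNIP and ARRDC4 peak in MXD3 replicate 2, at 152.9 and 20.0 CPM, ARRDC3 and MLXIP separate by replicate number, and MLX and ARRDC2 vary least.

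MXD3 against EV was the comparison that chose the set, and its values are therefore a description. Within replicate pairs, TXNIP was 1.56-fold higher in MXD3 than in EV in pair 1 and 2.996-fold higher in pair 2. ARRDC4 was 1.502-fold and 2.69-fold higher in pairs 1 and 2. Both genes were higher in both pairs, as were 30.6% of the 15431 genes tested, and both had MXD3 libraries wholly above EV libraries, as had 16.2% of genes. Many other genes therefore had the same order of libraries, but few had so large a difference. The fitted log2 difference was 1.24 ± 0.46 (SE) for TXNIP, with 164 of 15431 genes above it, and 1.10 ± 0.39 for ARRDC4, with 221 genes above it. In edgeR with the replicate pair as a block, they were 1.11 ± 0.15 and 1.02 ± 0.19 on the log2 scale. In DESeq2 the SE for TXNIP was 0.425 without the block and 0.335 with it. How far the SE for TXNIP fell with the block thus depended on the tool, while its fold in pair 1 and pair 2 differed as given above. MXD3 replicate 2 contributed much of the size, since without it the TXNIP difference was 0.45 and that of ARRDC4 0.46. ARRDC3 was 1.26-fold higher in pair 1 and at 0.80 of EV in pair 2, with a log2 difference of 0.07 ± 0.37, which turned to -0.003 with the block and so had no stable direction. ARRDC2 had a log2 difference of 0.00 ± 0.13, MLX of -0.10 ± 0.13 and MLXIP of -0.07 ± 0.21, and MLX and MLXIP were lower in both pairs, as were 31.5% of genes. Over all genes tested, 0.00648% passed an adjusted p of 0.05 in edgeR's quasi-likelihood test and 0.292% with the block.

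STIM1::MXD3 against EV shared its EV libraries with the comparison that chose the set. That choice favoured a higher TXNIP value here, and ARRDC4 followed TXNIP across libraries. The p-values of both genes, and counts that hold them, are therefore a description. TXNIP was 1.22-fold higher in pair 1 and 1.91-fold higher in pair 2, and ARRDC4 1.19-fold and 1.72-fold higher. None of the 6 genes passed in edgeR's quasi-likelihood test (0.00648% of all genes did) or in DESeq2, with or without the block, and none of the 6 was at an unadjusted p under 0.05 (0.953% of all genes were). The log2 difference of TXNIP was 0.68 ± 0.45 (95% interval -0.39 to 1.76; adjusted p = 1.00) and that of ARRDC4 0.56 ± 0.39 (-0.37 to 1.49; adjusted p = 1.00). These intervals include no difference as well as differences of the size seen with MXD3. With the replicate block, TXNIP had a log2 difference of 0.59 ± 0.15 (interval 0.28 to 0.91; unadjusted p = 0.00117, edgeR adjusted p = 0.329) and ARRDC4 of 0.51 ± 0.19 (unadjusted p = 0.0154, edgeR adjusted p = 0.502), so neither passed the adjusted threshold, which 0.0194% of genes passed. At an unadjusted p under 0.05 in edgeR with the block were TXNIP, ARRDC4, ARRDC3 and MLXIP, 4 of the 6 genes, where 8.5% of all genes were. DESeq2 with the block gave an unadjusted p of 0.0843 for TXNIP, 0.0187 for ARRDC4, 0.0472 for ARRDC3 and 0.00998 for MLXIP. For ARRDC3 the log2 difference with the block was -0.28 ± 0.13 (edgeR adjusted p = 0.581) and for MLXIP -0.22 ± 0.08 (edgeR adjusted p = 0.492). TXNIP, ARRDC4 and ARRDC2 were higher in both pairs, as were 27.1% of genes, and MLX and MLXIP were lower in both, as were 25.1%. Libraries did not overlap for ARRDC4 and ARRDC2, a pattern that 12.0% of genes had in this direction. For ARRDC2, the difference was 1.14-fold in pair 1 and 1.15-fold in pair 2, with a log2 difference of 0.19 ± 0.13 (interval -0.10 to 0.49; adjusted p = 1.00).

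STIM1::MXD3 against MXD3 asked whether the fusion differs from the full-length protein, and it used the MXD3 libraries in which TXNIP had been picked as high. That choice favoured a lower TXNIP value in the fusion, and ARRDC4 followed TXNIP across libraries. The intervals and p-values of both genes here, and counts that hold them, are therefore a description and carry no weight as a test. TXNIP in STIM1::MXD3 was at 0.78 of its MXD3 level in pair 1 and at 0.64 in pair 2, and ARRDC4 was at 0.79 and 0.64. Their libraries overlapped. The log2 difference was -0.56 ± 0.45 for TXNIP (95% interval -1.62 to 0.51; adjusted p = 1.00) and -0.54 ± 0.39 for ARRDC4 (-1.46 to 0.38; adjusted p = 1.00) by edgeR. Without MXD3 replicate 2 these were 0.23 and 0.10, so the direction rested on that library unless pairs were kept. With the block, TXNIP had a log2 difference of -0.52 ± 0.15 (edgeR adjusted p = 0.641) and ARRDC4 of -0.50 ± 0.18 (edgeR adjusted p = 0.696). No gene of the set passed in either fit or in DESeq2 without the block, and DESeq2 with the block gave an adjusted p for MLXIP alone (0.507). Over all genes 0.0% passed without the block, where 156 genes were at an unadjusted p under 0.05 (1.01%), and 0.00648% passed with it. In edgeR with the block, TXNIP, ARRDC4 and ARRDC3, 3 of the 6 genes, were at an unadjusted p under 0.05, against 6.49% of all genes. In DESeq2 with the block the unadjusted p was 0.121 for TXNIP, 0.015 for ARRDC4 and 0.0548 for ARRDC3, so the count depended on the fit. TXNIP, ARRDC4, ARRDC3 and MLXIP were lower in both pairs, as were 26.1% of genes, whereas ARRDC2 and MLX were higher in both, as were 27.5%. ARRDC2 was the single member with no overlap, which 10.9% of genes had in that direction. MLX differed by 0.05 ± 0.13 on the log2 scale, with an interval of -0.25 to 0.34, which lay inside the wider interval of TXNIP.

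**Figure D2:**
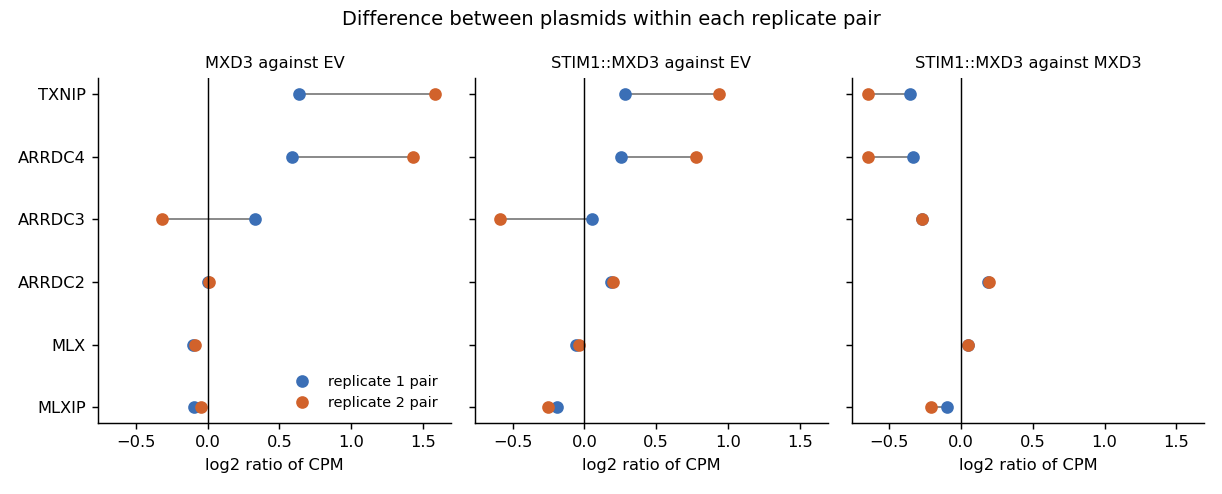
Log2 ratio of CPM within replicate pair 1 and pair 2 (horizontal axis) for each of the 6 genes (rows) in MXD3 against EV, STIM1::MXD3 against EV, and the fusion against MXD3; each point is 1 pair and 0 is equal level. TXNIP and ARRDC4 lie at 0.64 and 0.59 in pair 1 and at 1.58 and 1.43 in pair 2 for MXD3 against EV, and MLX stays near 0 throughout.

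Replicate 2 against replicate 1, with plasmid group as a covariate, was not itself used to choose the genes. It is not independent of that choice, since it holds MXD3 replicate 2, the library highest in TXNIP. The log2 difference of TXNIP was 0.68 without that library and 1.13 without either EV library. TXNIP and ARRDC4 rose and ARRDC3 and MLXIP fell in replicate 2. The log2 difference of TXNIP was 0.87 ± 0.12 (edgeR adjusted p = 0.000122) and that of ARRDC4 was 0.69 ± 0.15 (edgeR adjusted p = 0.00313). For ARRDC3 it was -0.71 ± 0.11 (edgeR adjusted p = 0.000167) and for MLXIP -0.38 ± 0.07 (edgeR adjusted p = 0.000582). These 4 of 6 genes passed where 29.2% of all 15431 genes passed, 13.1% higher and 16.1% lower, so more genes differed by replicate number than in any of the 3 plasmid comparisons. Of the 10 K562 markers, 1 rose and 6 fell in replicate 2, and their part in the members' differences was not tested. MLX at -0.13 ± 0.07 (edgeR adjusted p = 0.203) and ARRDC2 at 0.02 ± 0.09 (edgeR adjusted p = 0.893) did not pass. By group, TXNIP in replicate 2 was 1.26-fold its replicate 1 level in EV, 2.42-fold in MXD3 and 1.98-fold in STIM1::MXD3, and ARRDC4 was 1.17-fold, 2.09-fold and 1.68-fold. The difference between replicates was thus smallest in EV for both genes, and with 1 library per group and replicate this was not tested. ARRDC3 in replicate 2 was at 0.82 of replicate 1 in EV, 0.53 in MXD3 and 0.53 in STIM1::MXD3, so that its difference between replicates was also smallest in EV. TXNIP, ARRDC4 and ARRDC2 were higher in replicate 2 in all 3 groups, as were 28.6% of genes, and the other 3 members were lower in all 3, as were 30.2%. What the replicate numbers stand for beyond separate transfections is not given in the sources used here.

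ARRDC4 was the gene whose pattern was most like that of TXNIP. Likeness was the root mean square difference of mean-centred log2 CPM over the 6 libraries, among 10249 genes with a mean of at least 5 CPM, and a smaller value is closer. ARRDC4 was at 0.11, ahead of G0S2 at 0.23, HOXB8 at 0.24, BRD3OS at 0.26 and UBXN10 at 0.27. TXNIP was likewise the closest gene to ARRDC4. The other members ranked far lower in likeness to TXNIP, with ARRDC2 at rank 4208, MLX at 6658 (0.72), MLXIP at 8959 and ARRDC3 at 10084 (0.98), so that ARRDC3 was among the least alike of all genes. G0S2, an inhibitor of lipolysis, was measured at 6.72 and 10.5 CPM in EV, 8.37 and 22.3 CPM in MXD3 and 6.26 and 16.4 CPM in STIM1::MXD3. UBXN10 was measured at 8.78 and 15.0 CPM in EV, 19.4 and 28.0 CPM in MXD3 and 12.3 and 28.0 CPM in STIM1::MXD3. The nearest genes named here were higher in replicate 2 than in replicate 1 in every group, and higher in MXD3 than in EV in both pairs. They were not all highest in MXD3. In replicate 2, UBXN10 was level between MXD3 and STIM1::MXD3, and BRD3OS was at 13.0 CPM in MXD3 and 13.1 CPM in STIM1::MXD3. The points share library, depth and replicate number, and the ranking is a description.

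**Figure D3:**
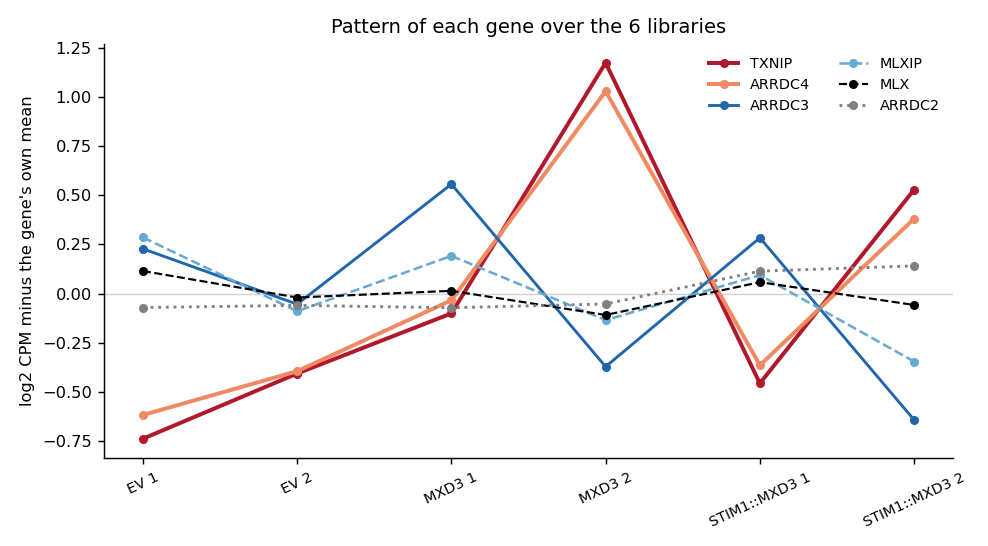
Mean-centred log2 CPM (vertical axis) over the 6 libraries (horizontal axis, EV, MXD3 and STIM1::MXD3, replicates 1 and 2) with a line per gene. TXNIP and ARRDC4 follow nearly 1 course (root mean square difference 0.11), and ARRDC3 runs against them (0.98).

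The wider pathway was read from 7 lists of genes (partners, targets, glucose handling, thioredoxin system, NEDD4-family ligases, TXNIP regulators and other alpha-arrestins). No gene of these lists passed an adjusted p of 0.05 in any plasmid comparison in edgeR's quasi-likelihood test, with or without the block, nor in DESeq2 without a block. In DESeq2 with the block, MGA was higher and SLC2A1 and PFKM were lower in MXD3 against EV, where 2.24% of the genes with an adjusted p passed, and no other listed gene of the 62 with one did. Unadjusted, 1.86% of all genes were under 0.05 in MXD3 against EV, and of the lists MGA, PFKM and HECW1 were. In STIM1::MXD3 against EV and in the fusion against MXD3, no listed gene was under 0.05 unadjusted without the block. With the block, 15 of 69 listed genes were under 0.05 unadjusted in MXD3 against EV (13.9% of all genes), 5 of 69 in STIM1::MXD3 against EV (8.5% of all genes) and 7 of 69 in the fusion against MXD3 (6.49% of all genes), by edgeR. Among these were SLC2A1 and MXD1, lower in STIM1::MXD3 than in EV, and FASN, PFKFB3, MGA, MNT and HK2, lower in the fusion than in MXD3, with edgeR adjusted p-values of 0.489 to 0.703. Of the genes counted, 4 were lower and 1 higher in STIM1::MXD3 against EV, and 6 lower and 1 higher in the fusion against MXD3. The higher gene in the latter was PFKM, by 0.21 on the log2 scale (edgeR adjusted p = 0.744). HECW1, chosen for mention with its values known, had 3 to 33 counts per library. Values below are log2 differences on the scale of the fit, and the median over all genes was 0.00 in MXD3 against EV and 0.01 in both STIM1::MXD3 comparisons.

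Of the MLX and MAX partners, 8 of 8 were tested. In MXD3 against EV 5 were higher and 3 lower, with a median of 0.07, and in STIM1::MXD3 against EV 3 were higher and 5 lower, with a median of -0.02. MGA, a MAX partner that acts as a repressor, differed by 0.42 ± 0.14 in MXD3 against EV (unadjusted p = 0.0234; edgeR adjusted p = 0.999) and by 0.11 ± 0.14 in STIM1::MXD3 against EV. MNT, a repressor that pairs with MAX or MLX, differed by 0.30 ± 0.15 and 0.02 ± 0.15 in the same comparisons. MAX differed by 0.01 ± 0.14, MXD1 by -0.04 ± 0.28 and MXD4 by -0.14 ± 0.13 in MXD3 against EV. MGA and MNT had the 2 highest values of the list, and of the partners MGA alone passed in any of the 4 fits, the blocked one of DESeq2.

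Of 13 reported targets of MondoA and its relative ChREBP, 12 were tested, among them GPD1 with 7 to 34 counts per library and FGF21 with 1 to 27. In MXD3 against EV 11 were higher and 1 lower, with a median of 0.17, and in STIM1::MXD3 against EV 5 were higher and 7 lower, with a median of -0.01. PFKFB3, which raises fructose-2,6-bisphosphate, was at 22.3 and 27.6 CPM in EV, 31.5 and 30.9 CPM in MXD3 and 23.3 and 25.8 CPM in STIM1::MXD3. Both MXD3 libraries were above all others, and the log2 difference from EV was 0.32 ± 0.16 (edgeR adjusted p = 0.999). HK2, a hexokinase, was at 32.4 and 45.0 CPM in EV, 43.9 and 47.9 CPM in MXD3 and 32.5 and 44.2 CPM in STIM1::MXD3, with a log2 difference of 0.25 ± 0.21. These groups overlapped. Both differences were well below those of TXNIP and ARRDC4.

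Of 17 genes of glucose entry and phosphorylation, 14 were tested, and 11 were lower and 3 higher in MXD3 against EV, with a median of -0.09. PFKFB3 and HK2 were counted in this list as well as among the targets. SLC2A1, which encodes the glucose transporter GLUT1, was at 579 and 433 CPM in EV, 489 and 327 CPM in MXD3 and 545 and 320 CPM in STIM1::MXD3. It was lower than EV in both pairs with either plasmid, with differences of -0.31 ± 0.30 for MXD3 and -0.23 ± 0.30 for STIM1::MXD3, and with the block of -0.33 ± 0.09 (edgeR adjusted p = 0.132) and -0.26 ± 0.09 (edgeR adjusted p = 0.489). SLC2A1 fell in replicate 2 by 0.59 on the log2 scale (edgeR adjusted p = 5.06e-05), while TXNIP rose there. PFKM, a phosphofructokinase subunit, differed by -0.35 ± 0.12 in MXD3 against EV (unadjusted p = 0.0249) and by -0.13 ± 0.12 in STIM1::MXD3 against EV.

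Genes that act with or on TXNIP were read from the last lists. Of 14 thioredoxin-system genes 9 were lower and 5 higher in MXD3 against EV (median -0.05), and TXN, which encodes the thioredoxin that TXNIP binds, differed by 0.03 ± 0.12. Of 9 NEDD4-family ligases 5 were higher and 4 lower (median 0.08), with SMURF2 at -0.27 ± 0.15, NEDD4 at 0.16 ± 0.12 and the low-count HECW1 at 2.02 ± 0.79. Of 15 TXNIP regulators, which hold AMPK subunits, NF-Y subunits, which bind CCAAT, FOXO factors, HSF1 and NR3C1, 13 were tested and 8 were lower and 5 higher (median -0.11), with PRKAB2, an AMPK subunit, at -0.30 ± 0.14 and PRKAG1 at -0.19 ± 0.12. FOXO1, mentioned because it was the highest of that list, differed by 0.71 ± 0.31, at 1.30 and 1.16 CPM in EV and 2.21 and 1.80 CPM in MXD3. In edgeR with the block, 4 of the 13 regulators were lower and 1 was higher at an unadjusted p under 0.05 in MXD3 against EV, where 13.9% of all genes were under 0.05. In DESeq2 with the block 4 were lower and 0 higher. ARRDC1, another alpha-arrestin, differed by 0.08 ± 0.14, and ARRDC5 had 0 counts in every library.

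In the fusion against MXD3, 10 of 12 target genes were lower, with a median of -0.12, and 6 of 8 partners were lower, also with a median of -0.12. PFKFB3 differed there by -0.35 ± 0.16 (unadjusted p = 0.0626; edgeR adjusted p = 1.00) and MGA by -0.30 ± 0.14 (unadjusted p = 0.0728; edgeR adjusted p = 1.00). In STIM1::MXD3 against EV the medians were -0.04 for glucose entry, 0.05 for the thioredoxin system, 0.01 for the ligases and -0.04 for the regulators. These comparisons share the MXD3 or EV libraries with MXD3 against EV.

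More listed genes passed between replicate numbers than in any plasmid comparison. In replicate 2 of all groups, 3 of 8 partners fell, 1 of 12 targets rose and 5 fell, and 2 of 14 glucose genes rose and 5 fell, by edgeR. In the thioredoxin system 2 of 14 rose and 3 fell, 1 of 9 ligases rose, and 5 of 13 regulators fell. HK2 rose by 0.35 ± 0.09 (edgeR adjusted p = 0.00848), and MXD1 fell by 0.55 on the log2 scale (edgeR adjusted p = 5.28e-05). Against the 29.2% of all genes that passed, 4 of 6 members passed, as given above.

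**Figure D4:**
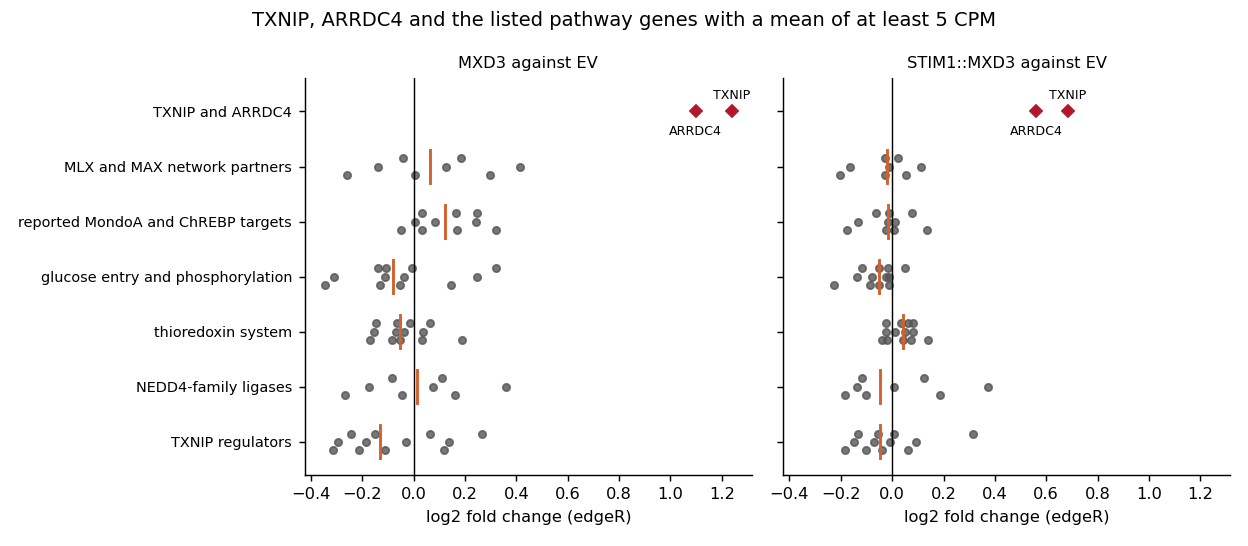
Log2 difference (horizontal axis) of TXNIP, ARRDC4 (diamonds) and each gene of 6 lists with a mean of at least 5 CPM (dots, by list in rows), in MXD3 against EV and STIM1::MXD3 against EV; orange bars are medians of the dots drawn. TXNIP and ARRDC4, at 1.24 and 1.10 in MXD3 against EV, lie to the right of every dot of the pathway lists.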

How the data were processed

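Poly(A)-selected RNA of 6 K562 libraries was sequenced in pairs of reads, and the submitters' processing notes name HISAT2 2.2.1 and featureCounts 2.0.1 with hg19. The authors deposited 1 table per library of raw read counts per NCBI Gene ID, not normalized. Of low counts, those of 1 to 39, 59.8 to 67.3% were even, so mates may have been counted singly; halved counts were tried. Strand use and annotation are not given in the sources used here.

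Of 25702 identifiers, 23696 (92.2%) matched a symbol. Genes passing filterByExpr (15431) were fitted over all 6 libraries with edgeR 4.0.16 (R 4.3.3, limma 3.58.1), TMM factors 0.96 to 1.03, quasi-likelihood F tests, 2-sided, and Benjamini-Hochberg adjustment at 0.05. SE is the log2 difference divided by the root of F. Intervals are 95%. RPKM used exon lengths of GENCODE v44 on GRCh37.

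Deviations of libraries with the same number from their group means correlated at 0.27 to 0.45 over 15431 genes in all 3 pairs of groups, across genes. Over the 10250 genes with a mean of at least 5 CPM the correlations were 0.621 to 0.792. The numbers were therefore taken as pairs, and a fit with a replicate block was made as an alternative. DESeq2 1.42.0, other scalings, other filters and leaving out each library were tried too. With 2 libraries per group, edgeR and DESeq2 both estimate the spread of a gene partly from other genes. An SE or p-value is therefore not a measure of that gene's own spread alone, and the spread between libraries may be partly technical. Scripts were tested on simulated data.

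The members and lists were chosen with earlier results of these data known. Named genes were the 6 members, ARRDC1, MAX, MNT, MXD1, MXD4, TXN, SLC2A1, HK2 and PFKFB3, the 2 genes of each list with the smallest p per plasmid comparison at a mean of at least 5 CPM, and the 5 genes most like TXNIP.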

Additional observations from a re-analysis of the deposited data

How the results depend on the processing

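The number of genes called in a plasmid comparison depended on the fit. In MXD3 against EV it was 1, and 45 in edgeR with the replicate block, 3 in DESeq2, 238 in DESeq2 with the block and 1 to 2 without 1 library. In STIM1::MXD3 against EV it was 1, and 3, 3 and 19 in the same 3 fits and 2 with no filter. In STIM1::MXD3 against MXD3 it was 0, and 1, 1 and 5 in those fits and 1 with no filter. Between replicate numbers it was 4499, and 2580 to 4424 without 1 library, with 2580 and 2902 on leaving out the fusion's replicate 1 or 2; the share higher among these calls went from 44.9% to 61.7% with library totals alone.

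No gene of the set passed in STIM1::MXD3 against EV under any of 16 settings, or against MXD3 under the 15 that gave all 6 an adjusted p (DESeq2 with the block gave one for MLXIP alone, which did not pass), and TXNIP, ARRDC4, ARRDC3 and MLXIP passed between replicate numbers in all 13. TXNIP stayed higher in MXD3 than in EV, by 0.45 to 1.75 on the log2 scale, and ARRDC4 by 0.46 to 1.55. Small differences changed sign: in MXD3 against EV, ARRDC3 was -0.003 with the replicate block and -0.009 in DESeq2 with the block, and ARRDC2 was -0.001 with DESeq2 size factors, with halved counts, in DESeq2 and in DESeq2 with the block. Leaving out 1 library breaks a pair and so lets the difference between replicate numbers in. Values then ran, in MXD3 against EV, from -0.452 to 0.454 for ARRDC3, -0.016 to 0.025 for ARRDC2 and -0.246 to 0.129 for MLXIP; in STIM1::MXD3 against EV, from -0.736 to 0.184 for ARRDC3 and -0.112 to 0.023 for MLX; and in STIM1::MXD3 against MXD3, from -1.145 to 0.231 for TXNIP, -0.987 to 0.102 for ARRDC4, -0.811 to 0.25 for ARRDC3, -0.013 to 0.096 for MLX and -0.385 to 0.048 for MLXIP. Depth was 53048343 counts or more per library.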
